A study of Saccharomyces cerevisiae with 4 samples.

Results

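The genes described here encode the nuclear-encoded parts of the respiratory chain and of ATP synthase in budding yeast (Saccharomyces cerevisiae). They were chosen by symbol: every probe set whose platform annotation names 1 of 38 listed genes was taken, and all 38 genes were found, each with 1 probe set, among 5449 measured yeast genes. Both groups were the wild type strain W1588-4c in YPD, a rich glucose medium, taken at log phase (OD600 0.6 to 0.8). One group (2 arrays) received 100 µM ebselen, a selenium drug that reacts with thiols, for 3 h. The other (2 arrays) received DMSO, the solvent, and the sample records used here give no separate exposure time for it. The arrays, Affymetrix Yeast Genome 2.0, are called biological replicates by the labels, which do not say whether the cultures were separate, so the p-values measure the spread between these arrays.

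In yeast mitochondria, electrons from NADH enter the chain through single-protein NADH dehydrogenases rather than through a proton-pumping complex I. Succinate dehydrogenase feeds in electrons from succinate, ubiquinone carries them to the cytochrome bc1 complex, and cytochrome c carries them on to cytochrome c oxidase, which reduces oxygen. The proton gradient built on the way drives ATP synthase. Many of these genes are repressed by glucose and activated through the heme activator (HAP) complex and the heme-responsive factor Hap1, so their transcripts are low in fermenting cells and rise when glucose runs out.

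Values are log2 expression relative to each gene's own median over the 4 arrays, as deposited. They hold no absolute level, so levels cannot be compared between genes and the identity of the culture cannot be checked on marker levels. A change is the ebselen mean minus the DMSO mean on the log2 scale, with the moderated standard error (SE, n = 2 arrays per group) of limma, a linear model fitted over all genes. A gene passed when its limma p, adjusted over all 5449 genes by the method of Benjamini and Hochberg, was under 0.05, and "fell" and "rose" are used for genes that passed.

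Expression of the respiratory chain and ATP synthase was lower in the arrays labelled ebselen in nearly every component. Of the 38 genes, 35 fell by limma, 0 rose and 3 did not pass. In this comparison 38.8% of all genes were called lower, 33.0% higher and 71.7% either way. At an unadjusted limma p under 0.05, 0 members were higher, against 1857 of all 5449 genes. In the methods' t-test 0 members were higher, against 1233 of all genes. The median change was −0.51, or 1.43-fold lower, against −0.03 for all genes, and the changes ran from −2.85 (NDE2) to 0.11 (CYT1). Both ebselen arrays lay below both DMSO arrays for 36 of the 38 genes (46.1% of all genes) and above them for 1, CYT1 (40.5% of all genes). Most of the falls were small. A fall of at least 2-fold was found for 4 of the 38 genes, namely NDE2, STF1, STF2 and SDH2, and for 412 of all 5449 genes (7.56%). Probe sets for fission yeast (Schizosaccharomyces pombe) on the same arrays were used as a background, and the 99th percentile of their absolute change was 0.60. A total of 13 members fell by more than that limit, as did 17.7% of all genes.

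**Figure D1:**
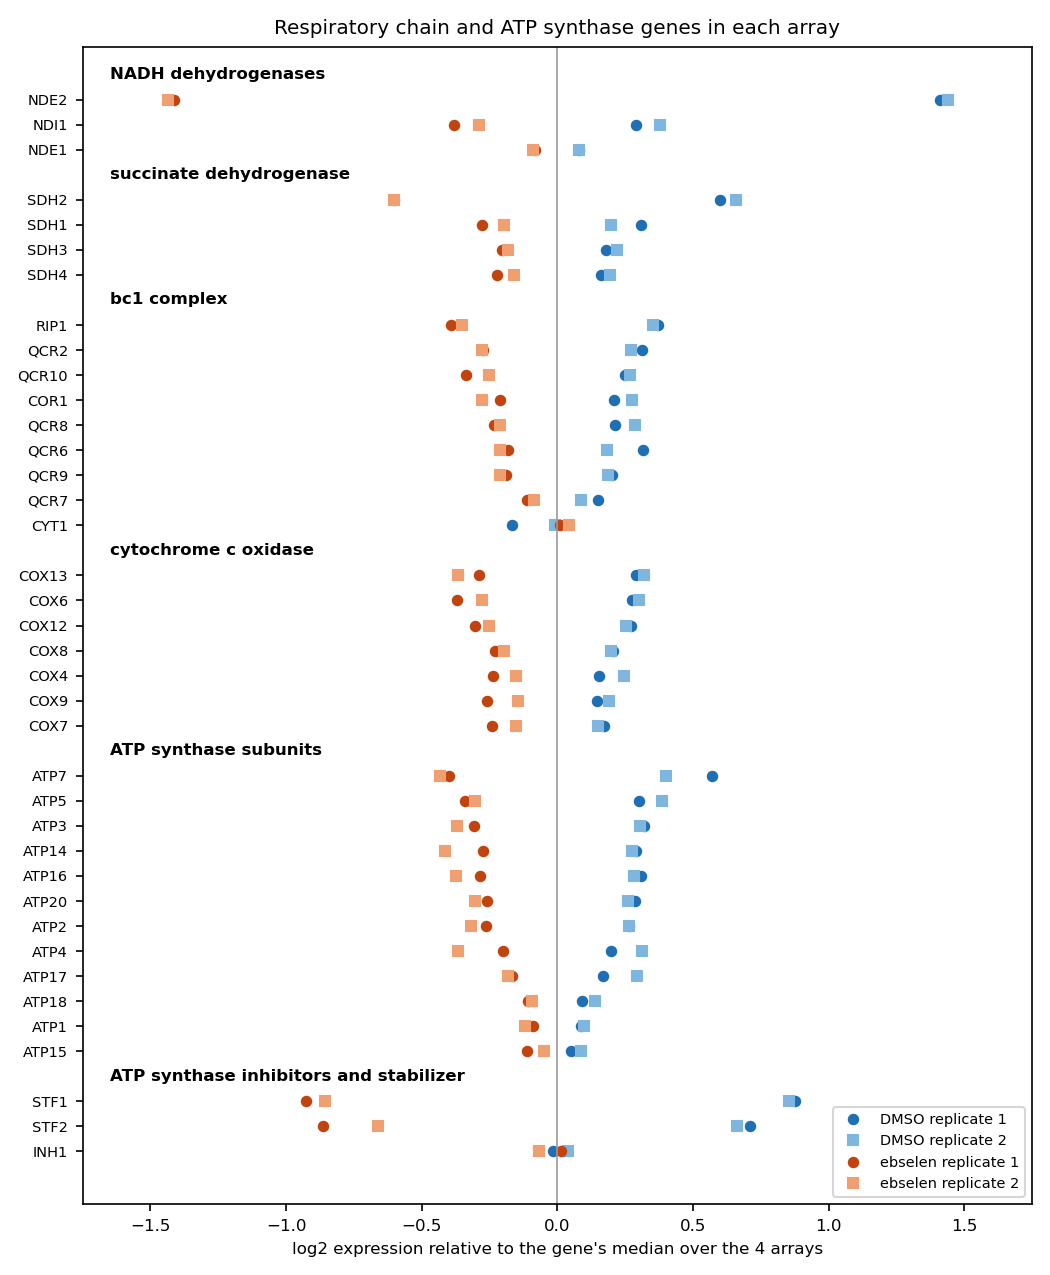
Each row is a gene and each point its value in 1 array, as log2 expression relative to the gene's median over the 4 arrays; blue marks DMSO, orange ebselen, circles replicate 1 and squares replicate 2. The DMSO points lie to the right of the ebselen points for 36 of the 38 genes, with NDE2, STF1, STF2 and SDH2 the most widely separated, while INH1 overlaps and CYT1 is turned the other way.

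Signal at the 5′ end of transcripts also differed between the groups, and 1 member, RIP1, is itself a control gene on this array with probe sets at its 5′ end, middle and 3′ end. At the 5′ end RIP1 had 0.58 and 0.51 in DMSO and −0.68 and −0.51 in ebselen, a change of −1.14. In the middle it had 0.36 and 0.46 against −0.43 and −0.36, a change of −0.81. At the 3′ end it had 0.20 and 0.26 against −0.20 and −0.23, a change of −0.45. All 3 probe sets were thus lower in both ebselen arrays, and the difference was smaller toward the 3′ end. Over the 8 yeast control transcripts probed at both ends, the change at the 5′ end minus that at the 3′ end was −0.75 ± 0.26 (SD over transcripts) and negative for all 8. Their 3′ probe sets alone changed by 0.01 ± 0.35, with 4 of 8 negative. The position of the other members' probe sets along their transcripts was not analysed here, and the part of this difference in their changes was not tested.

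**Figure D2:**
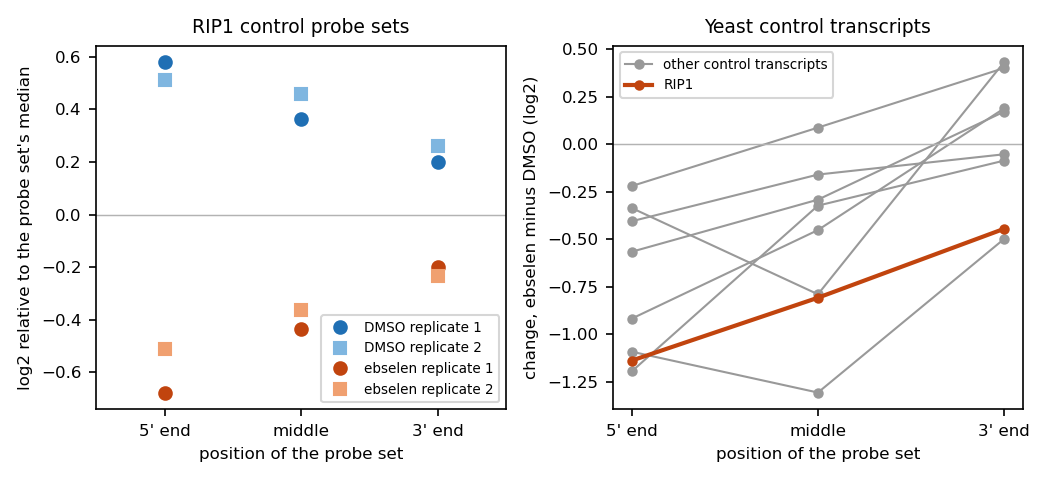
Left, the 3 RIP1 control probe sets in each array, as log2 relative to each probe set's median; right, the change (ebselen minus DMSO, log2) of all 8 yeast control transcripts by probe set position, with RIP1 in orange. RIP1 is lower in ebselen at every position, by −1.14 at the 5′ end and −0.45 at the 3′ end, and the 3′ changes of the 8 transcripts lie on both sides of 0.

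The NADH dehydrogenases differed most among themselves. NDE2, 1 of a pair of dehydrogenases on the outer face of the inner membrane that oxidize cytosolic NADH, had 1.41 and 1.44 in DMSO and −1.41 and −1.44 in ebselen. It was 7.21-fold lower (−2.85 ± 0.051, limma adjusted p after Benjamini-Hochberg 1.16e-05), the largest fall of the 38 genes. Its paralog NDE1 had 0.08 in both DMSO arrays and −0.08 and −0.09 in ebselen. The arrays of the groups did not overlap for NDE1 either, but the change was only −0.17 ± 0.049 (95% interval −0.29 to −0.04, limma adjusted p 0.0294). That call was lost when any 1 array was left out (limma adjusted p 0.062 to 0.145) and when the arrays were centred on the median of all genes. NDI1, which oxidizes NADH on the matrix side, had 0.29 and 0.38 against −0.38 and −0.29. It lay between the others, with a fall of −0.67 ± 0.063. The change of NDE2 exceeded that of NDE1 by −2.69, a difference of 1.33 and 1.36 in the DMSO arrays against −1.33 and −1.35 in the ebselen arrays. By a two-sided exact permutation test over the 4 arrays its p was 0.333, the smallest that 2 against 2 arrays allow. The same p was found for the other differences between members given below.

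All 4 subunits of succinate dehydrogenase fell, with a median of −0.44. SDH2, the iron-sulfur subunit that passes electrons toward ubiquinone, had 0.60 and 0.66 in DMSO and −0.60 in both ebselen arrays. It fell 2.35-fold (−1.23 ± 0.053, limma adjusted p 5.19e-05). The flavoprotein subunit SDH1 had 0.31 and 0.20 against −0.28 and −0.20, and the membrane anchors SDH3 and SDH4 changed by −0.39 and −0.37. These 3 subunits lay close together, between −0.37 and −0.49, and their 95% intervals overlapped one another but not that of SDH2 (−1.37 to −1.10). Set against the mean of the other 3 subunits, SDH2 changed by a further −0.81.

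**Figure D3:**
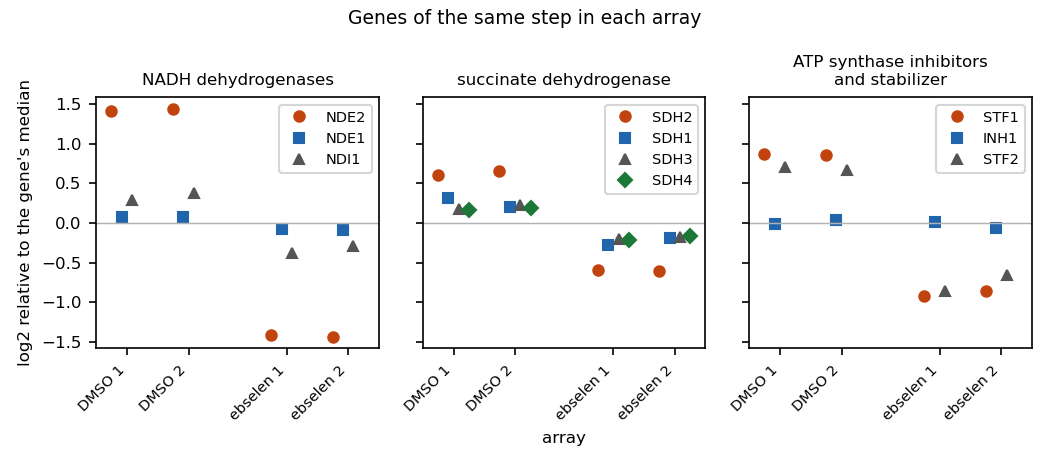
Log2 values relative to each gene's median (vertical axis) in the 4 arrays (horizontal axis) for the NADH dehydrogenases, the succinate dehydrogenase subunits and the ATP synthase inhibitors and stabilizer. NDE2 drops from 1.41 and 1.44 to −1.41 and −1.44 while NDE1 stays within 0.09 of 0; SDH2 and STF1 are likewise farther apart between the groups than SDH1, SDH3, SDH4 and INH1.

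In the bc1 complex, which moves electrons from ubiquinol to cytochrome c, 8 of 9 subunits fell, with a median of −0.47. RIP1, the Rieske iron-sulfur subunit, had 0.37 and 0.35 on its gene probe set in DMSO and −0.39 and −0.35 in ebselen. It fell 1.66-fold (−0.73 ± 0.051, limma adjusted p 0.000181), the largest fall of the complex, and its control probe sets at the 5′ end and 3′ end changed by more and by less than this. The core proteins QCR2 and COR1 changed by −0.57 and −0.49. The small subunits QCR10, QCR8, QCR6 and QCR9 fell by similar amounts, from −0.55 to −0.39. QCR7, a small matrix-side subunit, changed least among the 8 that fell (−0.22 ± 0.054, limma adjusted p 0.0151). Its call was lost without DMSO replicate 1 (change −0.19) and after the trend with gene length was removed (limma adjusted p 0.253).

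CYT1 stood apart from the other bc1 subunits. It encodes cytochrome c1, the heme subunit that hands electrons to cytochrome c. It had −0.17 and −0.01 in DMSO and 0.01 and 0.04 in ebselen, so it was not lower in either ebselen array. Its change of 0.11 ± 0.070 (95% interval −0.06 to 0.29) did not pass (limma adjusted p 0.196). Without DMSO replicate 1 it was 0.04. CYT1 passed as higher after the trend with gene length was removed (0.31, limma adjusted p 0.0108). Its change was −0.24 when arrays were scaled on the hybridization controls (limma adjusted p 0.0948). These controls are transcripts of other organisms added to each sample before hybridization. RIP1 and CYT1, the catalytic partners, differed in their changes by −0.85.

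All 7 measured subunits of cytochrome c oxidase on the list fell, within a narrow range from −0.63 to −0.36 and with a median of −0.42. The SD between these 7 changes was 0.12, against 0.24 among the 9 bc1 subunits and 0.22 among the 12 ATP synthase subunits. COX13 had 0.29 and 0.32 in DMSO and −0.29 and −0.37 in ebselen, a fall of −0.63 ± 0.056 (limma adjusted p 0.000374). COX6 had 0.28 and 0.30 against −0.37 and −0.28, a fall of −0.61 ± 0.058. COX12, a subunit on the intermembrane side, changed by −0.54. The other 4, COX8, COX4 (a zinc-binding subunit), COX9 and COX7, changed by −0.42, −0.39, −0.37 and −0.36. None of these nuclear-encoded subunits carries the redox centres, which sit in the mitochondrially encoded core; the 7 mitochondrially encoded genes of the chain and of ATP synthase were not analysed here.

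**Figure D4:**
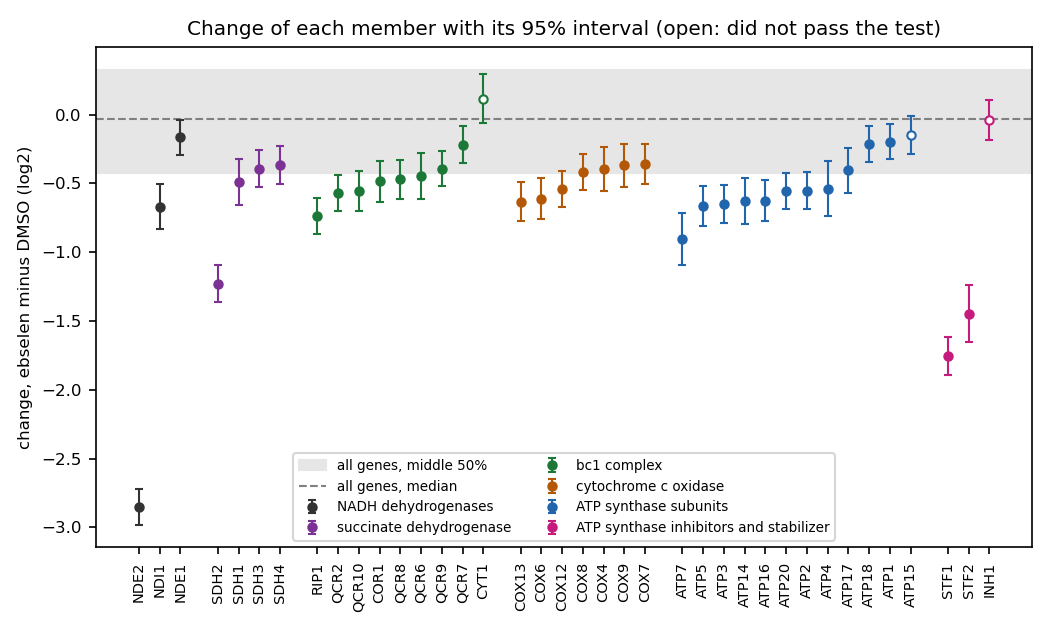
Points are the change of each gene (ebselen minus DMSO, log2) and bars its 95% limma interval, by complex; open points did not pass. The grey band holds the middle of all genes (−0.43 to 0.33) and the dashed line their median (−0.03). Most subunits sit between −0.7 and −0.2, with NDE2, SDH2, STF1 and STF2 below −1 and CYT1, ATP15 and INH1 not passing.

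Of the 12 ATP synthase subunits 11 fell, with a median of −0.55. The peripheral stalk, which holds the catalytic head still against the turning rotor, fell in all 4 of its listed subunits (ATP4, ATP5, ATP7 and ATP14), with a median of −0.65. ATP7 had 0.57 and 0.40 in DMSO and −0.40 and −0.43 in ebselen, and it fell 1.87-fold (−0.90 ± 0.073, limma adjusted p 0.000289), the largest change of the enzyme. ATP5, the subunit that confers oligomycin sensitivity, fell by −0.67 ± 0.057. ATP14 and ATP4 changed by −0.63 and −0.54. ATP4 had the largest SE of the 12 subunits (0.079) and did not pass the methods' t-test (adjusted p 0.0607).

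Within F1, the catalytic head and its central stalk, the changes ran from −0.65 to −0.15. The catalytic beta subunit ATP2 had 0.26 in both DMSO arrays and −0.26 and −0.32 in ebselen, a fall of −0.55 ± 0.052. The central stalk subunits ATP3 and ATP16 fell by −0.65 ± 0.053 and −0.62 ± 0.057. The alpha subunit ATP1, which alternates with beta in the head, had 0.09 and 0.10 in DMSO and −0.09 and −0.12 in ebselen. Its change of −0.20 ± 0.050 passed (limma adjusted p 0.017), but not without DMSO replicate 1, DMSO replicate 2 or ebselen replicate 2 (limma adjusted p up to 0.10). ATP15, the epsilon subunit of the central stalk, had 0.05 and 0.09 against −0.11 and −0.05, with no overlap between the groups. It missed the threshold (−0.15 ± 0.054, limma adjusted p 0.0527). It passed with 2 other centrings (limma adjusted p 0.0157 relative to the S. pombe probe sets, 0.000303 on the hybridization controls) and with the length trend removed (0.0415). It did not pass with centring on the median of all genes (limma adjusted p 0.11), quantile normalization (0.12) or the replicate block (0.0792). Nor did it pass with all probe sets in one fit (limma adjusted p 0.156), robust eBayes (0.054) or the methods' t-test (adjusted p 0.0829). With 1 array left out the change of ATP15 ran from −0.18 to −0.12. The 95% intervals of ATP1 (−0.33 to −0.07) and ATP2 (−0.69 to −0.42) did not overlap, and the difference between these changes was not tested.

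Among the membrane subunits, ATP20 and ATP17 fell by −0.55 and −0.41. ATP18 changed by −0.22 ± 0.052 (limma adjusted p 0.0138) and did not pass without DMSO replicate 1 or without DMSO replicate 2.

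The regulators of ATP synthase differed in their changes. INH1 encodes the inhibitor that blocks ATP hydrolysis when the proton gradient collapses. STF1 encodes its close relative, which stabilizes the complex of enzyme and inhibitor, and STF2 a further stabilizing factor. STF1 had 0.88 and 0.86 in DMSO and −0.93 and −0.86 in ebselen, and fell 3.38-fold (−1.76 ± 0.054, limma adjusted p 2.4e-05). STF2 had 0.71 and 0.66 against −0.86 and −0.66, and fell 2.73-fold (−1.45 ± 0.081, limma adjusted p 0.0001). INH1 had −0.01 and 0.04 in DMSO and 0.01 and −0.07 in ebselen, so the groups overlapped. Its change was −0.04 ± 0.058 with a 95% interval of −0.19 to 0.11 (limma adjusted p 0.572), an interval that does not reach the change of STF1 or STF2. With scaling on the hybridization controls, which moved the median of all genes from −0.03 to −0.39, INH1 passed as lower (−0.39, limma adjusted p 0.00519). The changes of STF1 and INH1 differed by −1.72.

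Of the 8 genes that flank the 4 members with at least a 2-fold fall, 2 fell, 5 rose and 1 did not pass. Of all genes, 38.8% were called lower, 33.0% higher and 71.7% either way. The genes next to NDE2, YDL085C-A and SUB2, rose by 0.28 and 0.19. Next to STF1, RPP1B rose by 0.58 and LYS21 changed by 0.06 without passing. Of the neighbours of STF2, SEC9 fell (−0.71) and ECT1 rose (0.32), and of those of SDH2, ATG10 fell (−0.20) and VPS13 rose (0.24). Gene order was taken from the RefSeq gene table of assembly R64.

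The members are short genes, and changes over all genes varied with length. Their median gene length, as the RefSeq gene table gives it, was 457.5 bases (180 to 1923) against 1236 for all genes. The members had the lower median in each of 4 length classes. Up to 300 bases it was −0.42 for 11 members and 0.07 for 243 genes, and from there to 600 bases −0.45 for 13 members and −0.12 for 665 genes. From 600 to 1200 bases it was −0.65 for 7 members against −0.19 for 1738 genes, and above 1200 bases −0.49 for 7 members against 0.06 for 2803 genes. The members are part of the gene totals in each class. Across the 38 members, which share the same 4 arrays, change and log2 length had a Pearson correlation of −0.16, and 0.06 without NDE2, given as a description. With the length trend removed the median of the members was −0.39, with 34 lower and 1 higher.

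Genes of the same machinery outside the 38 were taken from fixed lists. Of 14 measured genes among other subunits, isoforms and electron carriers, 11 fell by limma and 0 rose (0 also at an unadjusted p under 0.05 or in the methods' t-test, in which 7 fell), with a median of −0.50. Over all 5449 genes, limma called 38.8% lower and 33.0% higher, and 1857 were higher at its unadjusted p under 0.05. The methods' t-test called 25.9% of all genes lower and 1233 genes higher. SHH3, a homolog of SDH3, had 1.89 and 1.70 in DMSO and −1.70 and −1.80 in ebselen, a fall of −3.54 ± 0.085 that exceeded that of every member. GUT2, the mitochondrial glycerol 3-phosphate dehydrogenase, which also feeds electrons to ubiquinone, fell by −1.53 ± 0.15. Of the cytochrome c isoforms, CYC7, the form favoured at low oxygen, changed by −1.32 ± 0.075 and CYC1, the main aerobic form, by −0.22 ± 0.055. The call of CYC1 was lost without DMSO replicate 1, DMSO replicate 2 or ebselen replicate 2 (limma adjusted p up to 0.112). COX5A and COX5B, the aerobic and hypoxic isoforms of a further cytochrome oxidase subunit, fell by −0.51 ± 0.055 and −0.50 ± 0.065.

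The factors that assemble the complexes held genes called in both directions as deposited. Over the 4 assembly lists together, 23 of 60 genes fell and 18 rose, with a median of −0.05, shares near the 38.8% and 33.0% of all genes called lower and higher. With scaling on the hybridization controls 39 fell and 3 rose, where 3177 of all 5449 genes (58.3%) were lower and 645 higher. In the methods' t-test 11 fell and 7 rose, where 1410 of all genes (25.9%) were lower and 1233 higher. For cytochrome c oxidase 9 of 29 assembly and translation factors fell and 11 rose (median −0.01; with scaling on the hybridization controls 17 fell and 1 rose), while all 7 listed subunits of that enzyme fell. COA6, an assembly factor, fell by −0.94 ± 0.054, and PET111, which activates translation of a mitochondrially encoded subunit, rose by 0.64 ± 0.051. For the bc1 complex 5 of 12 fell and 1 rose. That 1 was BCS1, the factor that inserts Rip1 into the complex, which had −0.32 and −0.34 in DMSO and 0.32 and 0.35 in ebselen (0.66 ± 0.051), opposite in sign to RIP1 itself, and CBP4 fell by −0.65 ± 0.097 (adjusted p 0.0688 in the methods' t-test). For ATP synthase 7 of 14 fell and 4 rose, and fewer rose without DMSO replicate 1, as over all genes. NCA3, named for a part in the expression of mitochondrially encoded ATP synthase subunits, changed by −2.67 ± 0.060, and INA22, which helps build the peripheral stalk, by −0.98 ± 0.067. For succinate dehydrogenase 2 of 5 fell and 2 rose, among them SDH8 (−0.84 ± 0.051) and FLX1, a mitochondrial carrier (0.77 ± 0.097, adjusted p 0.0558 in the methods' t-test).

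**Figure D5:**
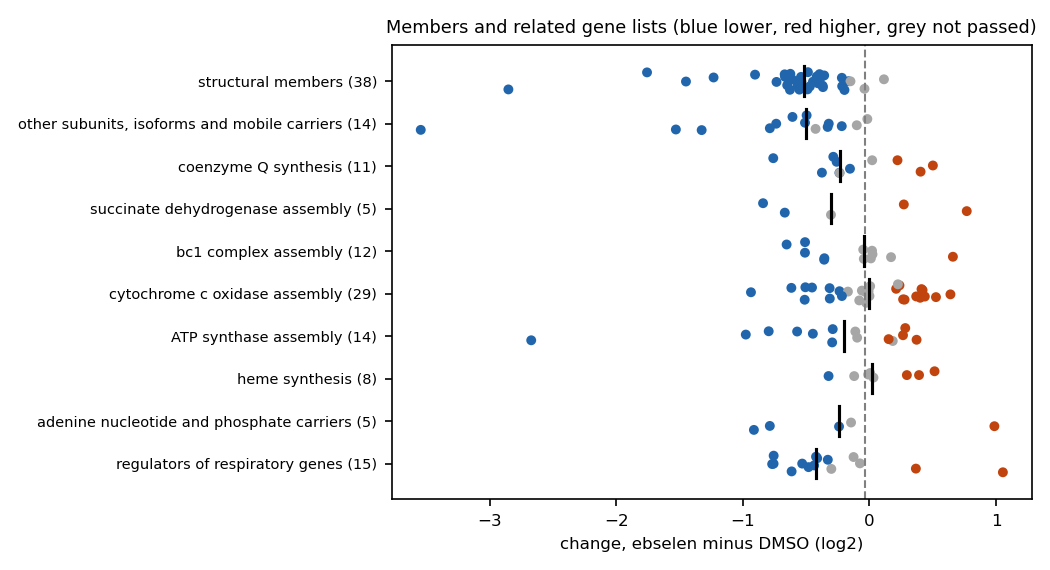
Points are genes by change (ebselen minus DMSO, log2; horizontal axis) for the 38 members and the related lists (gene numbers in brackets, points spread vertically for legibility), black bars mark list medians and the dashed line the median of all genes. The members and the other subunits lie almost wholly left of 0, while the assembly lists hold red points that rose beside blue points that fell.

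Counts in the cofactor and carrier lists are small, and those as deposited are to be read against the 38.8% of all genes called lower and 33.0% called higher. On the hybridization controls 3177 of all 5449 genes (58.3%) were lower and 645 higher. With the length trend removed 1932 of all genes (35.5%) were lower and 2028 higher. Of 11 genes for the synthesis of coenzyme Q, the mobile carrier between the dehydrogenases and bc1, 6 fell and 3 rose. Fewer fell without DMSO replicate 1, as over all genes. On the hybridization controls 8 fell and none rose, and with the length trend removed 2 fell and 4 rose. COQ4 changed by −0.76 ± 0.064 and COQ8 by 0.50 ± 0.081, the latter without passing on the hybridization controls (0.15, limma adjusted p 0.318) or in the methods' t-test (adjusted p 0.0699). Of 8 heme synthesis genes 1 fell and 3 rose, among the latter HEM4 (0.51 ± 0.050) and HEM15, ferrochelatase (0.39 ± 0.051). With scaling on the hybridization controls 5 heme genes fell and neither HEM4 nor HEM15 passed, and with the length trend removed 1 fell and 6 rose. Among the carriers that exchange ADP, ATP and phosphate 3 of 5 fell and 1 rose. The minor ADP/ATP carrier AAC1 had 0.34 and 0.51 in DMSO and −0.63 and −0.34 in ebselen (−0.91 ± 0.11, adjusted p 0.0585 in the methods' t-test), and the anaerobic form AAC3 had −0.47 and −0.48 against 0.56 and 0.47 (0.99 ± 0.058).

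Of 15 regulators of respiratory genes 10 fell and 2 rose, with a median of −0.42, where 38.8% of all genes were called lower and 33.0% higher. Every gene of the HAP complex fell. HAP4, its activating and glucose-repressed subunit, had 0.23 and 0.34 in DMSO and changed by −0.53 ± 0.061 (limma adjusted p 0.00092). HAP2, HAP3 and HAP5, the DNA-binding subunits, changed by −0.61 ± 0.052, −0.48 ± 0.059 and −0.76 ± 0.18, and HAP5, with 0.55 and 0.18 in its DMSO arrays, did not pass the methods' t-test (adjusted p 0.149). HAP1 changed by −0.44 ± 0.061. MSN4, a general stress activator, had the largest fall of this list (−0.77 ± 0.079). The related MSN2 rose by 0.37 ± 0.064 (limma adjusted p 0.00427) but did not pass the methods' t-test. In that test 8 genes of the list fell and 0 rose, where 1410 of all 5449 genes (25.9%) were lower and 1233 higher. PUF3, an RNA-binding protein that targets messages of mitochondrial proteins, had −0.83 and −0.39 in DMSO and 0.39 and 0.49 in ebselen, and rose by 1.05 ± 0.15 (adjusted p 0.0718 in the methods' t-test).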

How the data were processed

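RNA of the 4 samples was labelled by 3′ IVT Express chemistry and hybridized to 1-colour arrays, per the labels' protocols. Per the submitters' processing notes the authors ran RMA; they deposited log values, read here as log2 because RMA gives that base, which no source states. Every probe set had a median of 0 over the 4 arrays. Of 10928 probe sets, 5498 matched 5449 genes of the RefSeq table (assembly R64, with no build named in the files), and probe sets of a gene were averaged. Groups were compared in limma 3.58.1 (R 4.3.3, lmFit and eBayes, two-sided, group as the only term, 2 residual and 3.13 prior degrees of freedom), tested on simulated data first. The number of arrays limits precision. Alternatives were a replicate block, each array left out, other centrings (27 hybridization control or 1746 S. pombe probe sets), quantile normalization, loess removal of the length trend, all probe sets in one fit, a limit at the S. pombe 99th percentile, robust eBayes, the t-test with Benjamini-Hochberg correction that the design text names (the methods' t-test), other thresholds and unshared probe sets. All 38 members are named, with 9 other genes fixed by name and, per list, the 2 largest changes past the test without overlap of groups. MSN2 and the genes flanking the largest falls were added after values were seen. Members and lists were chosen with earlier results of these data known. Promoter and protein sequences were not analysed here. Figures used matplotlib 3.10.9.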

Additional observations from a re-analysis of the deposited data

How the results depend on the processing

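The median change of the 38 members was negative under each of the 9 alternatives that change the members' values. The others of the 17 left the members' changes as they were. It was −0.46 with quantile normalization, −0.48 with centring on the median of all genes and −0.58 relative to the S. pombe probe sets. With scaling on the hybridization controls it was −0.87, and with the gene length trend removed −0.39. Leaving out 1 array gave −0.53 to −0.50. The hybridization controls moved the median of all genes to −0.39 from −0.03 and its calls to 3177 lower and 645 higher (83.1% lower, against 54.1%). Such a shift of whole arrays leaves the distance of the members' median from that of all genes (−0.48) fixed by construction. With 1 array left out fewer members were called lower, and so were fewer of all genes. The replicate block called 34 members and 36.2% of all genes lower, and it ended the call of NDE1 and of no other member. The methods' t-test called 33 members lower, and 1410 of all genes (25.9%) lower and 1233 higher against 2113 and 1796. With the limit at the S. pombe 99th percentile 13 members, 962 genes lower and 685 genes higher passed, because that alternative removes small changes by its construction. Members called higher numbered 0, and 1 (CYT1) with the length trend removed. INH1 ranged from −0.0806 to 0.0024 with 1 array left out and was 0.027 with the length trend removed, without passing, and it passed as lower on the hybridization controls (−0.39, limma adjusted p 0.00519). CYT1 turned to −0.24 on those controls without passing. The cause was not tested. Apart from the S. pombe limit, 29 of the 35 members that fell kept their call under every alternative. The deviations of same-numbered arrays had a correlation of −0.08 over genes, which does not tell whether the cultures were paired.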
